A study of Mus musculus with 9 samples.

Results

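Microglia, the resident macrophages of the brain, were examined here for the genes that make and receive interferon signals: Ifnb1, which encodes the type I interferon interferon beta, Ifnar1 and Ifnar2, the chains of the type I interferon receptor, and Ifngr1 and Ifngr2, the chains of the interferon gamma receptor. They were chosen by gene symbol, and all 5 have a row of their own among the 21212 rows of the expression table. Primary microglia came from pooled litters of wild-type CD-1 mouse pups (P0 to P1) and were grown for 5 to 7 days with M-CSF and GM-CSF (10 ng/ml each). After a night without serum they were given 100 ng/ml LPS, the endotoxin used for M1-skewing, 20 ng/ml IL-4, used for M2a-skewing, or an equal volume of PBS for 4 h. Each condition was measured on 3 Affymetrix Mouse Exon 1.0 ST arrays, 9 in all. The microglia were enriched by density gradient and by adhesion to the plate, so other glia of the newborn brain may remain in the culture, and it is not stated whether the 3 replicates were separate preparations. The p-values therefore cover no more than the scatter of these arrays, and that scatter may be technical.

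All type I interferons bind 1 receptor, in which the kinase TYK2 sits on IFNAR1 and the kinase JAK1 on IFNAR2. The receptor turns on STAT2 with IRF9, which together with a further STAT protein switch on antiviral genes. Interferon gamma, made mostly by T cells and NK cells, binds IFNGR1, and IFNGR2 joins to complete that receptor with JAK1 and JAK2. LPS is sensed by TLR4, and in macrophages the adaptor TICAM1 (TRIF) leads from there through the kinase TBK1 to the transcription factor IRF3 and to Ifnb1. IL-4 acts through a receptor of its own. The secreted interferon beta can then act back on the cells that made it.

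Values are log2 expression values after RMA, so a difference of 1 is a doubling, and they are compared between conditions for a given gene and not between genes. No detection call came with them, so it is unknown whether a dim gene was above the background of the array, and a fold change of such a gene can be understated. The array medians lay between 7.20 and 7.39. Of 10 microglia markers 9 had a row. On the PBS arrays the M-CSF receptor gene Csf1r measured 11.45 to 11.85, the complement gene C1qa 10.83 to 11.25 and Tmem119 6.90 to 7.30. The astrocyte genes Gfap and Aqp4 measured 10.85 to 11.74 and 11.32 to 12.01 there, and the median of 7 T, NK and B cell markers was 4.09 to 4.23. Levels of different genes cannot be ranked on an array, so these values do not give the make-up of the culture. Replicate 3 of LPS and replicate 3 of PBS stood apart from the other replicates of their condition. All 10 motile cilia markers were above both other replicates there, by a median of 1.71 in LPS and of 1.81 in PBS. The list median was 8.95 and 9.28 on these arrays, and 7.41 to 7.64 on the other LPS and PBS arrays. On the IL-4 arrays it was 8.73 to 9.06, near the level of both arrays numbered 3. Of 10 measured oligodendrocyte lineage markers, 9 in LPS and 8 in PBS were above both other replicates (median 0.80 and 0.69). That list median was 8.56 and 8.80 there, 7.03 to 7.38 on the other LPS and PBS arrays, and 7.49 to 7.74 in IL-4. Of 8 astrocyte markers 6 and 7 were above, and of 6 fibroblast and meningeal markers none was (median −0.24 and −0.32). The part of these differences in the comparisons with IL-4 was not tested. The arrays measured the RNA of the whole culture. In such bulk samples, fewer cells of a type and less RNA per cell cannot be told apart.

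The stretch of DNA before the start of Ifnb1 is shown because it holds binding motifs of the factors that LPS is known to engage, and the same stretch of Ifngr1 is shown beside it because that receptor chain moved the other way with LPS. Both run 5′ to 3′ from −170 to −71, counted from the start of the RefSeq gene (GRCm38.p6, chr4:88522865-88522964, minus strand, and chr10:19591779-19591878, plus strand). In the Ifnb1 sequence capitals mark the NF-κB motif GGGANNTTC (a consensus without its last base), the interferon regulatory factor core AANNGAAA and the TATA motif TATAAA, and in the Ifngr1 sequence they mark CG dinucleotides.
Ifnb1: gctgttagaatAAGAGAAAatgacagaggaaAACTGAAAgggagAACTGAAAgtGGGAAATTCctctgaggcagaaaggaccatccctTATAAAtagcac
Ifngr1: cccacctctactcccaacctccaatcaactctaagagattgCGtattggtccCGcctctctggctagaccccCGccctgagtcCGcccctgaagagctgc

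The motifs were searched in the 250 bases before the start, on both strands for the NF-κB and interferon regulatory factor motifs and on the coding strand for TATAAA, and no marked motif overlaps another. Ifnb1 held the NF-κB motif at −116 to −108, and 3.22% of 32536 promoters of this length hold it. It held the interferon regulatory factor core at −159 to −152, −139 to −132 and −126 to −119, which 21.3% of the promoters hold at least once and 0.851% at least 3 times. TATAAA was found at −82 to −77 and once more further out, and 7.55% of the promoters hold it. Before the 4 receptor genes, the NF-κB motif was found once, on the other strand of Ifngr2 (−74 to −66), and the interferon regulatory factor core and TATAAA were not found. The motif of the gamma-activated sequence, TTCNNNGAA, was found once, before Ifnar2, and 7.04% of the promoters hold it. The receptor promoters also differed from that of Ifnb1 in base composition: the observed over expected ratio of CG dinucleotides was 0.606 (Ifnar2), 0.618 (Ifngr1), 0.728 (Ifnar1) and 0.841 (Ifngr2), against 0.103 for Ifnb1 and a median of 0.378 over all promoters. A match of letters describes the sequence and not the binding of a factor.

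LPS raised Ifnb1 and, by less, Ifnar1, and lowered Ifngr1, while Ifnar2 and Ifngr2 did not pass the test. These 3 calls of 5 genes (adjusted p under 0.05, limma) stand beside 37.8% of all rows called between LPS and PBS, 15.4% higher in LPS and 22.4% lower, so a call by itself does not set these genes apart. The LPS and PBS arrays did not overlap for 4 of the 5 genes, all but Ifngr2, and for 45.7% of all rows.

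Ifnb1 was the member with the largest difference. Its log2 value was 6.62, 6.62 and 6.06 on the LPS arrays, 4.54, 4.66 and 4.54 on the IL-4 arrays and 4.82, 4.66 and 4.82 on the PBS arrays. All 3 LPS arrays lay above all 6 others, and the IL-4 and PBS arrays met at 4.66, the same deposited value on replicate 2 of both conditions. The means were 6.43 ± 0.325 in LPS, 4.58 ± 0.066 in IL-4 and 4.77 ± 0.0957 in PBS (SD, n = 3 each). LPS exceeded PBS by 1.67 ± 0.143 on the log2 scale (SE), or 3.17-fold (limma adjusted p = 3.23e-05), with a 95% confidence interval of 1.34 to 1.99. LPS exceeded IL-4 by 1.85 ± 0.143 (adjusted p = 1.66e-05). Replicate 3 of LPS, 1 of the arrays that stood apart, was 0.56 below the mean of the other LPS arrays. Without it the rise over PBS was 1.85 (adjusted p = 1.07e-06), and without replicate 3 of both LPS and PBS it was 1.88 (adjusted p = 1.10e-06). Tlr4, the LPS receptor gene, was also lower on that array (8.11, against 8.94 and 8.96 on the other LPS arrays), and was 8.36 on PBS replicate 3 and 9.21 and 9.40 on the other PBS arrays. The part of Tlr4 in the lower Ifnb1 value was not tested.

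**Figure D1:**
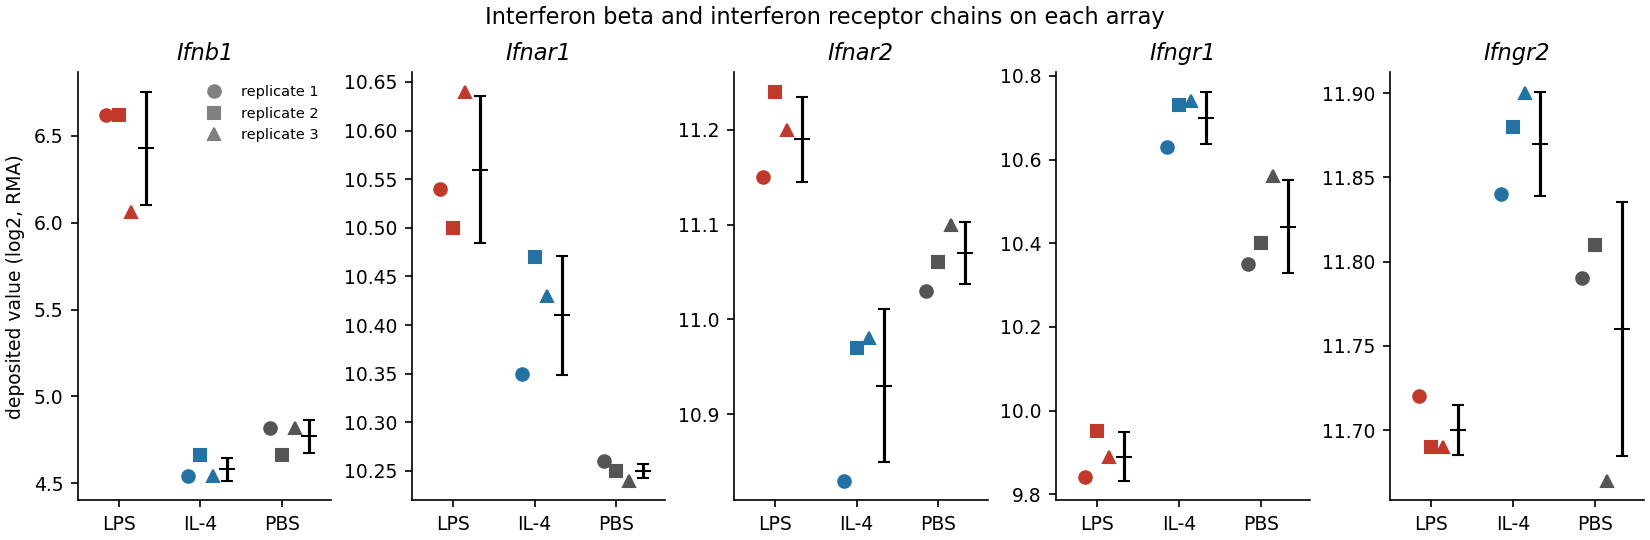
Deposited log2 values of the 5 genes on the 3 LPS (red), 3 IL-4 (blue) and 3 PBS (grey) arrays, with marker shapes for the replicate number and the mean ± SD in black. Each panel has its own scale that does not start at 0: Ifnb1 spans 4.54 to 6.62, whereas Ifngr2 spans 11.67 to 11.90. Ifnb1 is high on the LPS arrays alone, and Ifngr1 is lowest there.

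Ifnar1, the chain that docks TYK2, was higher with LPS. It measured 10.54, 10.50 and 10.64 in LPS, 10.35, 10.47 and 10.43 in IL-4 and 10.26, 10.25 and 10.24 in PBS. The 3 conditions did not overlap, in the order LPS, IL-4, PBS, and the SD of the PBS arrays was 0.00735. LPS exceeded PBS by 0.31 ± 0.056 (SE, 1.24-fold, limma adjusted p = 0.00229). The IL-4 mean lay between, 0.16 above PBS (adjusted p = 0.147) and 0.15 below LPS (LPS minus IL-4, adjusted p = 0.0557), so neither neighbour in this order was told apart by the test. The rise with LPS was 0.21 after quantile normalization (adjusted p = 0.0272) and 0.42 with each array's median subtracted.

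Ifnar2, the chain that docks JAK1, followed another order. It measured 11.15, 11.24 and 11.20 in LPS, 10.83, 10.97 and 10.98 in IL-4 and 11.03, 11.06 and 11.10 in PBS. Again the conditions did not overlap, here in the order LPS, PBS, IL-4. Only the ends of the order differed by the test: LPS exceeded IL-4 by 0.27 ± 0.056 (SE, 1.20-fold, limma adjusted p = 0.00478), while LPS minus PBS was 0.13 (95% confidence interval 0.00 to 0.26, adjusted p = 0.108) and IL-4 minus PBS was −0.14 (−0.27 to −0.01, adjusted p = 0.209). With each array's median subtracted, LPS minus PBS was 0.24 and passed (adjusted p = 0.0148). The gene is known to be spliced into a membrane form and a soluble form in mice, and the table gives 1 value for both.

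Ifngr1, the ligand-binding chain of the interferon gamma receptor, fell with LPS. It measured 9.84, 9.95 and 9.89 in LPS, 10.63, 10.73 and 10.74 in IL-4 and 10.35, 10.40 and 10.56 in PBS. The LPS arrays lay below all others, and the IL-4 arrays lay above all others. LPS was lower than PBS, with a difference of −0.54 ± 0.069 (SE, 1.46-fold lower, limma adjusted p = 3.18e-04), and lower than IL-4, with a difference of −0.80 ± 0.069 (1.75-fold lower, adjusted p = 3.01e-05). IL-4 minus PBS was 0.26 ± 0.069 and missed the threshold (adjusted p = 0.0697). PBS replicate 3 was 0.19 above the mean of the other PBS arrays, and without it IL-4 minus PBS was 0.32 and passed (adjusted p = 0.0194). In the motile cilia markers, however, it was the PBS array nearest to the IL-4 arrays. The list median was 9.28 there, 8.73 to 9.06 in IL-4, and 7.56 and 7.64 on the other PBS arrays. The PBS arrays that remain thus differ more from IL-4 in these markers. In the oligodendrocyte lineage markers PBS replicate 3 was instead the farthest from IL-4. That list median was 8.80 there, 7.49 to 7.74 in IL-4, and 7.38 and 7.30 on the other PBS arrays. The fibroblast and meningeal list had 8.25 there, 8.79 to 8.94 in IL-4, and 8.86 and 8.76 on the other PBS arrays. The part of these marker differences in the gained call was not tested. All 9 measured microglia markers were higher on PBS replicate 3 than on the other PBS arrays, by a median of 0.40. With LPS, 7 of these 9 markers fell, among them Csf1r, and none rose, beside 22.4% of all rows lower and 15.4% higher. The median difference of the list was −0.70, against 0.0051 over all rows. The list median was 7.97 to 9.31 in LPS and 9.15 to 10.62 in PBS. The part of this shift in the fall of Ifngr1 was not tested.

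Ifngr2, the signaling chain that docks JAK2, had the smallest difference of the 5 genes between LPS and PBS. It measured 11.72, 11.69 and 11.69 in LPS, 11.84, 11.88 and 11.90 in IL-4 and 11.79, 11.81 and 11.67 in PBS. PBS replicate 3 lay below all LPS arrays, so LPS and PBS overlapped, and the IL-4 arrays were the highest. LPS minus PBS was −0.06 (95% confidence interval −0.18 to 0.06, limma adjusted p = 0.430) and 0.06 with each array's median subtracted. IL-4 minus PBS was 0.12 (adjusted p = 0.251). LPS was lower than IL-4, with a difference of −0.17 ± 0.052 (SE, adjusted p = 0.0247), a call lost with array medians subtracted (−0.02, adjusted p = 0.802) and without LPS replicate 2 (−0.17), IL-4 replicate 2 (−0.17) or IL-4 replicate 3 (−0.16). Of the interferon gamma receptor, then, the ligand-binding chain fell 1.46-fold with LPS, while the interval for the other chain spans 0.886-fold to 1.04-fold.

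**Figure D2:**
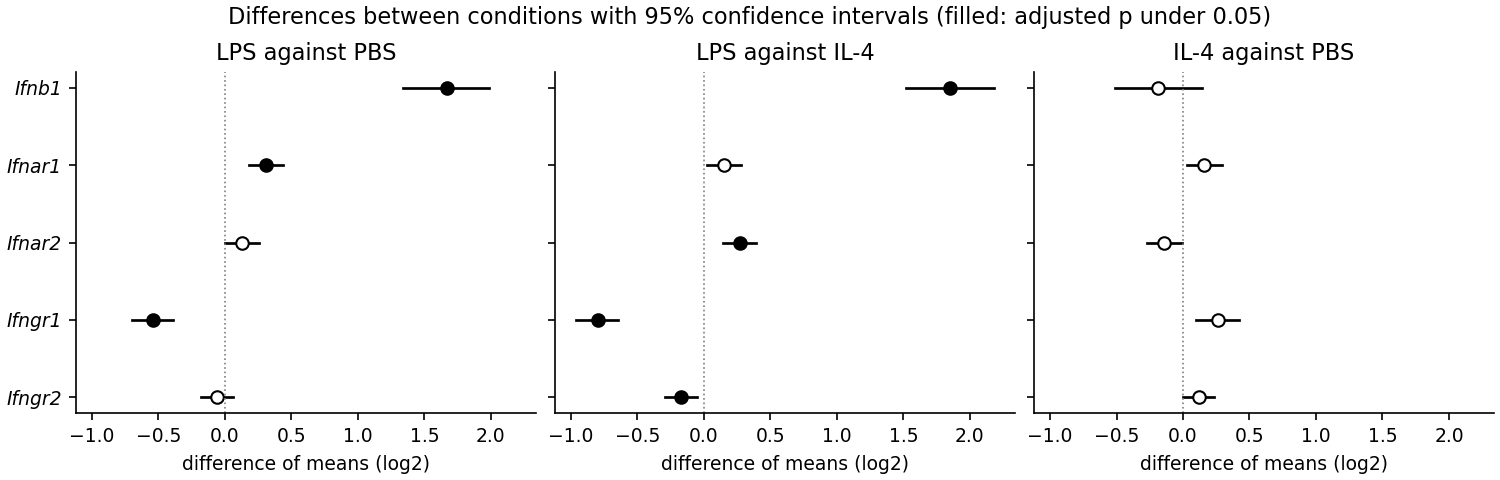
Difference of mean log2 values (x axis) for the 5 genes in LPS against PBS, LPS against IL-4 and IL-4 against PBS, with 95% confidence intervals as lines and filled points for an adjusted p under 0.05. Ifnb1 lies at 1.67 and 1.85 in the comparisons with LPS, Ifngr1 lies at −0.54 and −0.80, and no point is filled for IL-4 against PBS.

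With IL-4 none of the 5 genes passed against PBS (limma, and none with the methods' t-test after adjustment), beside 5.40% of all rows called (3.35% higher and 2.05% lower in IL-4). At an unadjusted p under 0.05 there were 3 by limma and 3 by the methods' t-test, beside 20.7% and 19.5% of all rows. The IL-4 and PBS arrays did not overlap for the 4 receptor genes, nor for 29.0% of all rows. The 95% confidence interval of IL-4 minus PBS for Ifnb1 was −0.51 to 0.14 on the log2 scale. Of the receptor chains, Ifnar1, Ifngr1 and Ifngr2 had IL-4 means above PBS and Ifnar2 below. Between LPS and IL-4, 4 of the 5 genes passed, Ifnb1 and Ifnar2 higher in LPS and Ifngr1 and Ifngr2 lower, beside 46.9% of all rows (21.0% higher and 25.9% lower in LPS). None of the 5 genes had overlapping LPS and IL-4 arrays, which held for 59.9% of all rows. LPS against PBS and IL-4 against PBS share the PBS arrays, so the values of these comparisons are not independent.

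The other ligands had smaller differences than Ifnb1. Of 18 measured interferon genes besides Ifnb1 (20 listed), 1 rose with LPS and none fell, with a median difference of 0.16 and a range of −0.02 to 0.33, while 15.4% of all rows rose. The gene that rose was Ifna4 (5.03, 5.08 and 4.87 in LPS, 4.76, 4.68 and 4.54 in PBS), an interferon alpha gene, by 0.33 ± 0.086 (limma adjusted p = 0.0144). The interferon alpha genes are close copies of each other, so their rows may share signal and are uncertain as single genes. Ifng, the gene of interferon gamma, measured 5.96, 5.84 and 5.83 in LPS and 5.71, 5.78 and 5.81 in PBS (difference 0.11, adjusted p = 0.301). The lambda interferon genes Ifnl2 (0.17, adjusted p = 0.0501) and Ifnl3 (0.04, adjusted p = 0.827) did not pass either, nor did Ifna1 (0.08). With IL-4 no ligand passed (range −0.35 to 0.15), and 1 fell with the replicate block over 9 arrays and without replicate 3 of LPS and of PBS. These settings called 1377 and 6389 of 21212 rows in either direction, against 1146 in the main fit. The count of ligands that rose with LPS was 7 with array medians subtracted and 3 after quantile normalization. All rows higher numbered 5872 and 3440 in these settings, against 3266 in the main fit.

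Of 8 other receptors of the class II cytokine family, to which the interferon receptors belong, 3 rose with LPS and none fell, beside 15.4% of all rows higher and 22.4% lower. The share called was close to the 37.8% of all rows called in either direction, so the count does not set them apart. F3, the tissue factor that starts coagulation, rose by 1.12 ± 0.084 (SE, adjusted p = 1.46e-05) and Il20rb, a chain of receptors for interleukin 20 family cytokines, by 0.70 (adjusted p = 8.87e-05). Il10ra, the ligand-binding chain of the interleukin 10 receptor, rose by 0.38 with LPS and fell by 0.67 with IL-4 (10.27, 10.22 and 10.20 in LPS, 9.17, 9.16 and 9.22 in IL-4, 9.86, 9.85 and 9.85 in PBS), with no overlap between the conditions. Il20rb also rose with IL-4, by 1.40 (adjusted p = 4.00e-05). Il10rb, the chain that the interleukin 10 and lambda interferon receptors share, and Ifnlr1, its partner in the lambda interferon receptor, did not pass in either comparison (−0.17 for Il10rb in both, 0.03 with LPS and −0.03 with IL-4 for Ifnlr1).

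The transducers below the receptors rose with LPS. All 5 measured genes (6 listed) were called higher in LPS (list median 1.03, limma), beside 15.4% of all rows, and 4 were after quantile normalization, without Jak1. Jak2, the kinase of IFNGR2, measured 11.22, 11.15 and 11.12 in LPS, 9.52, 9.54 and 9.52 in IL-4 and 8.72, 8.94 and 9.07 in PBS. It rose by 2.25 ± 0.084 with LPS and by 0.62 ± 0.084 with IL-4 (adjusted p = 2.35e-07 and 0.00505). Stat2 rose by 1.55 with LPS and fell by 0.75 with IL-4, and its DNA-binding partner Irf9 rose by 0.52 and fell by 0.55. Tyk2, the kinase of IFNAR1, rose by 1.03 with LPS (−0.10 with IL-4, adjusted p = 0.750), and Jak1, which serves both receptors, rose by 0.21 (−0.06 with IL-4, adjusted p = 0.589).

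Genes that restrain the receptors rose as well. Of 11 such genes, 7 rose with LPS and 2 fell, beside 15.4% of all rows higher and 22.4% lower. Socs3 rose by 2.83 ± 0.075 and Socs1, an inhibitor of the JAK kinases, by 2.81 ± 0.090 (limma adjusted p = 3.56e-08 and 9.44e-08). Usp18, which binds IFNAR2 and blunts the response to type I interferon, measured 12.41, 12.41 and 12.42 in LPS, 9.68, 9.44 and 9.45 in IL-4 and 10.62, 10.50 and 10.44 in PBS. It rose by 1.89 with LPS and fell by 0.99 with IL-4. The phosphatase gene Ptpn2 rose by 1.43 with LPS and by 0.40 with IL-4, and Socs1 rose with IL-4 too, by 1.21 (adjusted p = 2.47e-04). The genes that fell with LPS were Btrc (−0.50), a ubiquitin ligase subunit that marks IFNAR1 for degradation, and Pias1 (−0.24). Fbxw11, the paralog of Btrc, rose by 0.65, and Ptpn6 (0.18) and Prkd2 (0.10) did not pass. With IL-4, 2 genes rose and 1 fell, beside 3.35% of all rows higher and 2.05% lower, and Ptpn1 (0.21) and Pias1 (−0.09) did not pass. The number that rose with IL-4 was 5 without replicate 3 of LPS and of PBS, where 2 fell, and 1 with array medians subtracted. Without these replicates 6389 of 21212 rows were called in either direction, against 1146 in the main fit. With array medians subtracted 459 rows were higher (711 in the main fit).

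Along the route that leads from LPS to Ifnb1, 10 of 17 measured genes (20 listed) rose with LPS and 2 fell (list median 0.75), beside 15.4% of all rows higher and 22.4% lower. The transcription factor genes Irf1 (2.53 ± 0.087, SE) and Irf7 (2.48 ± 0.258) rose most, followed by the LPS co-receptor gene Cd14 (1.64) and the adaptor gene Azi2 (1.54). The kinase genes Tbk1 and Ikbke rose by 1.25 and 1.23. Irf3, the factor that the route activates by phosphorylation, fell by 0.32 (limma adjusted p = 0.00173), as did Atf2, by 0.28. Besides Cd14, the genes at the receptor end did not pass, with −0.32 for Tlr4, 0.07 for its partner Ly96, 0.31 for Ticam1 and −0.19 for Ticam2, and neither did the transcription factor gene Irf8 (0.11). With IL-4, Cd14 alone passed, and it fell by 0.43, beside 2.05% of all rows lower, while Ly96 (−0.25) and Irf8 (−0.37) did not pass. Irf7 had an IL-4 minus PBS difference of −1.05 that missed the threshold (adjusted p = 0.0558), with PBS replicate 3 (9.84) above the other PBS arrays (8.89 and 8.87). Without replicate 3 of LPS and of PBS, 7 genes of this list fell with IL-4. In that setting 6389 of 21212 rows were called in either direction, against 1146 in the main fit. With array medians subtracted 2 fell, beside 454 rows lower (435 in the main fit).

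The listed type I interferon targets were higher with LPS, and most were lower with IL-4. Whether they changed through the type I receptor was not tested. Of 20 measured type I interferon targets (23 listed), all 20 rose with LPS (limma, list median 2.47, range 1.02 to 4.48), beside 15.4% of all rows. Mx1, an antiviral GTPase, measured 11.35, 11.46 and 11.59 in LPS, 6.31, 5.84 and 5.96 in IL-4 and 6.61, 7.04 and 7.30 in PBS. It rose by 4.48 ± 0.181 with LPS, Mx2 by 4.12 ± 0.095, Oasl1 by 3.92 ± 0.145 and Rsad2 (viperin) by 3.58 ± 0.055. With IL-4, 17 of the 20 fell and none rose (list median −0.97, beside 2.05% of all rows lower). The largest falls were those of the oligoadenylate synthetase genes Oas2 (−1.87 ± 0.128) and Oas3 (−1.27 ± 0.121), of Ifit1 (−1.30 ± 0.065) and of Rsad2 (−1.27 ± 0.055). Cmpk2 (−0.19), Bst2 (−0.32) and Oasl1 (−0.60) did not pass. In the same comparison 3 of 6 fibroblast and meningeal markers and 2 of 5 endothelial markers rose and none fell, beside 3.35% of all rows higher. The fibroblast and meningeal list median was 8.79 to 8.94 in IL-4 and 8.25 to 8.86 in PBS. The endothelial list median was 6.24 to 6.67 in IL-4 and 6.07 to 6.30 in PBS. None of the 10 motile cilia markers passed, but all had IL-4 means above PBS (list median difference 0.77, range 0.36 to 0.92). The part of these cell type markers in the differences of the targets was not tested. Over the same IL-4 and PBS arrays Ifnb1 differed by −0.19 (adjusted p = 0.496), Ifnar1 by 0.16 and Ifnar2 by −0.14. Without replicate 3 of LPS and of PBS, 20 targets rose with LPS and 18 fell with IL-4. In that setting 10046 and 6389 of 21212 rows were called in either direction in these comparisons.

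Of 18 interferon gamma targets, many of which type I interferons also induce, 12 rose with LPS and none fell (list median 1.76), beside 15.4% of all rows higher. Cxcl9, a T cell chemokine gene, rose by 5.56 ± 0.113 (SE), the GTPase genes Gbp2b by 4.31, Iigp1 by 4.30 and Igtp by 3.24 (limma adjusted p between 1.09e-08 and 3.05e-06). The MHC class II genes of the list did not pass and were far apart between replicates: H2-Aa measured 8.97, 8.83 and 8.19 in LPS, 6.67, 7.22 and 8.11 in IL-4 and 8.30, 9.67 and 7.37 in PBS. Ciita, their master regulator, rose by 0.30 (adjusted p = 0.0358), and the differences of Cd74, the invariant chain (0.47), and Fcgr1 (0.40) did not pass. With IL-4, 6 fell, beside 2.05% of all rows, led by the Fc receptor gene Fcgr1 (−1.78 ± 0.146) and including Irgm1 (−0.61), Igtp (−0.57) and Gbp3 (−0.54), and Gbp2 alone rose, by 0.50. Cd74 (0.58) and Cd274 (0.23), the gene of the checkpoint ligand PD-L1, did not pass. Ifngr1 fell with LPS in arrays in which these genes rose. No condition had an interferon or its receptor blocked. The values of the list members therefore do not tell apart interferon gamma, type I interferon and LPS acting without an interferon.

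**Figure D3:**
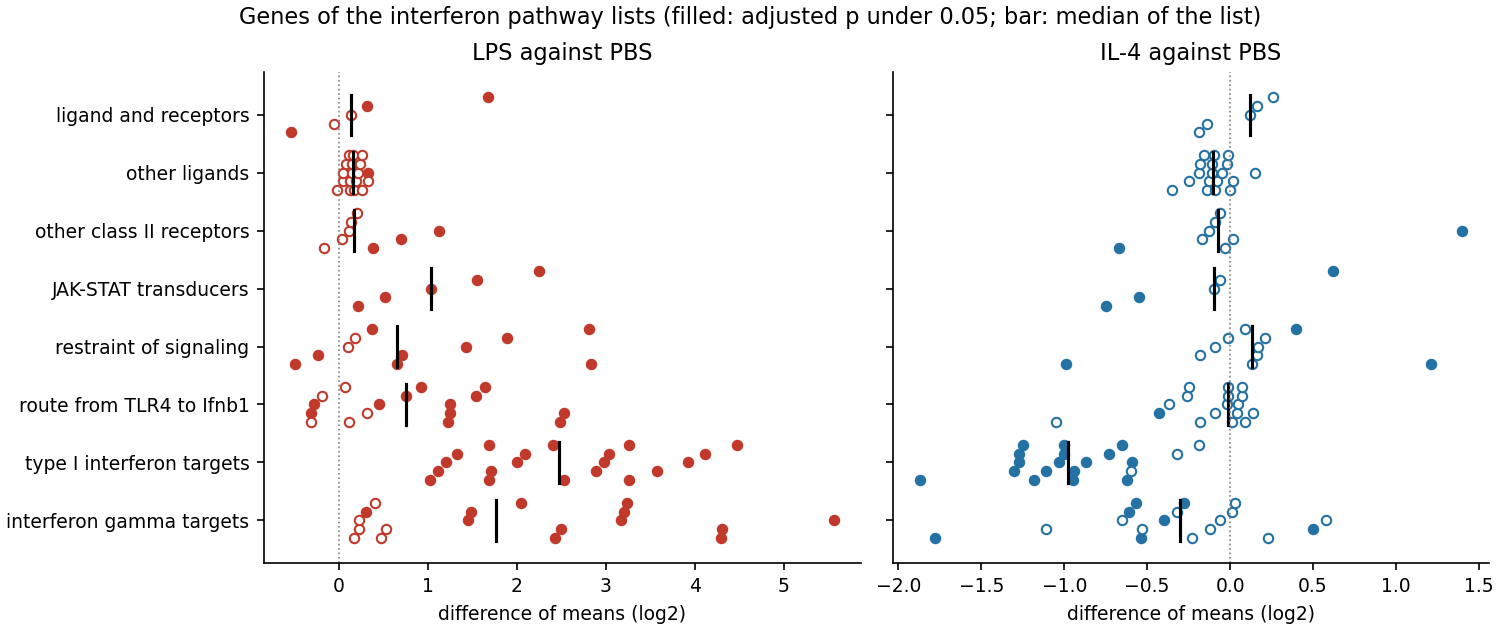
Difference of mean log2 values (x axis) of each gene in the 8 lists for LPS against PBS (left) and IL-4 against PBS (right), filled where the adjusted p was under 0.05, with a bar at the list median. The panels have different x scales. The ligand and receptor genes lie between −0.54 and 1.67 with LPS, and the type I interferon targets lie between 1.02 and 4.48 with LPS and at a median of −0.97 with IL-4.

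Ifnar2, Il10rb, Ifnar1 and Ifngr2 follow each other on chromosome 16 in the RefSeq order of measured genes, with Olig1, Olig2 and 4932438H23Rik on one side and Tmem50b, Dnajc28 and Gart on the other. Of the 4 receptor genes in this row, Ifnar1 alone passed with LPS. Of the 6 flanking genes, Olig1 (−0.54), an oligodendrocyte transcription factor, 4932438H23Rik (−0.96), Dnajc28 (−1.66) and Gart (−0.47), an enzyme of purine synthesis, fell with LPS, and Gart rose with IL-4 by 0.26. Over all rows 22.4% were called lower and 15.4% higher with LPS, and 3.35% higher with IL-4. So few neighbours do not show whether the region differs from other rows. Ifngr1 lies alone on chromosome 10, where its measured neighbours include Tnfaip3, the NF-κB inhibitor A20, which rose by 3.22 with LPS and by 0.69 with IL-4, and the receptor genes Il22ra2 (0.20 with LPS) and Il20ra (0.11), which did not pass. Perp (−0.37), Olig3 (0.08) and Slc35d3 (0.16) did not pass either. Ifnb1 lies on chromosome 4 at the edge of the interferon gene cluster. Its nearest measured ligand genes Ifna15 (0.26), Ifna14 (0.21) and Ifna9 (0.12) did not pass with LPS, and Hacd4 on its other side fell by 1.07 with LPS and by 0.64 with IL-4. Beyond it, Mllt3 rose by 0.72 with LPS and Focad (0.06) did not pass.

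**Figure D4:**
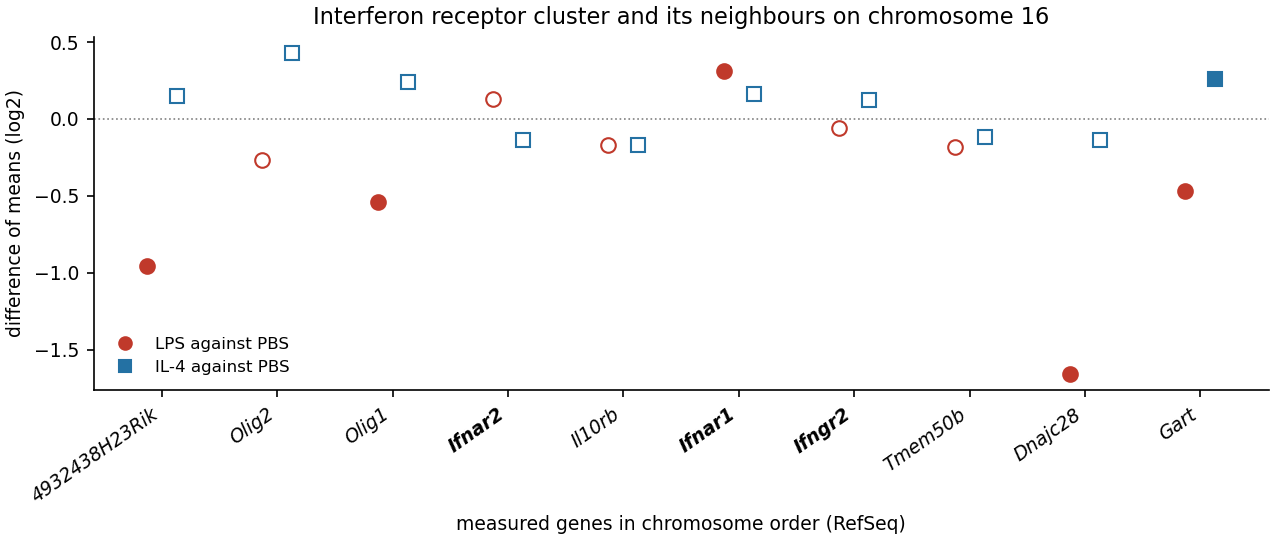
Difference of mean log2 values (y axis) for the interferon receptor cluster (members in bold) and its nearest measured neighbours in chromosome order, with red circles for LPS against PBS and blue squares for IL-4 against PBS, filled where the adjusted p was under 0.05. Ifnar1 (0.31) is the filled circle above 0, and the 4 filled circles below 0 are flanking genes. Over all rows 15.4% were called higher and 22.4% lower with LPS.

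The genes whose log2 values were most like those of each member were found by Pearson correlation over the 9 arrays, which is a description, since arrays of a condition share a treatment. The 5 genes nearest to Ifnb1 were Slc23a2 (r = 0.997), Zfp658, Frmd4a, Il1f6 and Slc25a37 (r = 0.994), whose LPS minus PBS differences ran from 0.75 (Frmd4a) to 2.32 (Il1f6). Those nearest to Ifngr1 were Rnase4 (r = 0.994), Frg2f1, Lipt2, Psmg2 and Alg10b (r = 0.992), with differences between −0.83 (Rnase4) and −0.35 (Psmg2). The likeness was lower for the other chains: Cct8 led for Ifnar1 (r = 0.983), followed by Ptpn9, Crk, Mcmbp and Dhx15, and Syngr2 for Ifngr2 (r = 0.974), followed by C1qbp, Cblb, Chek1 and Ppp3r1. For Ifnar2 they were Gm6548 (r = 0.962), Ms4a6c, Olfr175, Ptpru and Adamts1. No member was among the nearest genes of another. Over the same arrays Ifnb1 had r = 0.70 with Ifnar1, 0.82 with Ifnar2, −0.93 with Ifngr1 and −0.71 with Ifngr2, and the chains of a receptor had r = 0.45 (Ifnar1 and Ifnar2) and r = 0.74 (Ifngr1 and Ifngr2).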

How the data were processed

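The authors deposited log2 values, made with RMA in the affy package (versions not given in the sources used here). RMA corrects the background, equalizes the distributions of the arrays and summarizes the probes of a gene. The 21212 rows carry Entrez gene names, and 18786 had 1 symbol in the platform annotation. Listed genes without a row are not analysed here. A value recurred on at least 2 arrays in 31.3% of the rows.

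Arrays were grouped by the sample titles. A linear model with a mean for each of the 3 conditions was fitted to all 9 arrays (limma 3.58.1 with eBayes, R 4.3.3, 6 residual and 2.38 prior degrees of freedom), and two-sided p-values were adjusted over all rows (Benjamini-Hochberg, called under 0.05). The methods name Student's t-test, which was kept as an alternative. On simulated arrays of 21212 rows (LPS against PBS), 6% of genes changed by 0.25, 62% by 0.5, 88% by 1 and 92% by 2 on the log2 scale were called. In the simulation 50 genes were changed by each amount and 21012 rows were left unchanged. In the data 37.8% of all rows were called between LPS and PBS, so the adjustment was less strict there. The simulated shares therefore do not give the chance of a call for the members. The number of arrays limits the precision.

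The members and the 7 pathway and 8 cell type lists were chosen with earlier results of these data known. All 5 members were named, and of each pathway list the 4 called genes with the largest changes, 2 uncalled genes of high mean and the genes that share a receptor with a member. In addition, the 5 most correlated genes and the nearest 3 measured neighbours on each side were named. Other list genes were named after their values had been seen. Promoter sequences and gene order came from RefSeq (GRCm38.p6, all 5 members matched). The build behind the arrays' rows is not given in the sources used here.

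Same-numbered arrays deviated together between LPS and PBS (correlations of 0.578, 0.651 and 0.800) but not throughout between IL-4 and PBS (0.339, −0.255 and 0.075). Deviations of the 3 arrays of a condition depend on each other, and replicate 3 stood apart in both LPS and PBS. The values for numbers 1 and 2 are therefore no separate evidence of pairing. The numbers may pair LPS with PBS only, but these correlations do not settle it. The main model held no term for the replicate number, so its p-values and intervals do not use such a pairing. A replicate block was run as an alternative in every comparison. Alternatives were the t-test, only 6 arrays, eBayes with trend or robust, array weights, quantile normalization, subtraction of array medians, leaving out the dimmest 33.3% of rows, a replicate block, and leaving out arrays. The alternatives for list counts were chosen after seeing the data. Python 3.11.15, numpy 2.4.6, pandas 2.3.3 and matplotlib 3.10.9 were used.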

Additional observations from a re-analysis of the deposited data

How the results depend on the processing

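Of 252 member results under the alternatives, 235 kept their direction and their side of the threshold. Ifnb1, Ifnar1 and Ifngr1 in LPS against PBS and Ifnb1, Ifnar2 and Ifngr1 in LPS against IL-4 did so under every alternative run. The dimmest rows left out include Ifnb1, so it has no value there. In LPS against PBS, Ifnar2 passed with array weights (0.14, adjusted p = 0.0430) and with array medians subtracted (0.24, adjusted p = 0.0148). With medians subtracted the median of all rows shifted by 0.11 (by 0.15 in LPS against IL-4), and Ifngr2 turned to 0.06 (adjusted p = 0.479). In IL-4 against PBS, Ifnar1 passed with array weights (0.17) and without replicate 3 of both LPS and PBS (0.16, adjusted p = 0.0493). Ifngr1 passed there with array weights (0.32), with the replicate block over 9 arrays (0.26, adjusted p = 0.0444), without PBS replicate 3 (0.32) and without both of these replicates (0.32, adjusted p = 0.00589), and leaving out 1 array gave 0.22 to 0.32. In LPS against IL-4, Ifnar1 passed with the eBayes trend (0.15), without the dimmest rows (0.15) and with array medians subtracted (0.30), whereas Ifngr2 lost its call with medians subtracted (−0.02, adjusted p = 0.802) and with the replicate block over 6 arrays (−0.17, adjusted p = 0.0712), and leaving out 1 array gave −0.19 to −0.16. The replicate block changed no other member's call. The number of rows called was 8014 in LPS against PBS and 5303 with the methods' t-test. It was 1146 in IL-4 against PBS, but 716 with the methods' t-test, 287 with the replicate block over 6 arrays, 8295 with array weights and 6389 without replicate 3 of both LPS and PBS, and 466 to 2033 with 1 array left out. The share of called rows that were higher was 40.8% in LPS against PBS and 63.9% with medians subtracted, 62.0% and 50.3% in IL-4 against PBS, and 44.8% and 72.1% in LPS against IL-4. The cause of these changes was not tested. Without a detection call, the low PBS and IL-4 values of Ifnb1 may lie at background.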
